A study of Mus musculus with 12 samples.

Results

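The Cyp2c family of the mouse is a set of closely related cytochrome P450 enzymes, most of them encoded side by side on chromosome 19 and most of them made in the liver. The 10 genes described here are Cyp2c29, Cyp2c37, Cyp2c38, Cyp2c39, Cyp2c44, Cyp2c50, Cyp2c54, Cyp2c55, Cyp2c70 and the pseudogene Cyp2c53-ps. They were taken by symbol from the authors' deposited table of 37991 genes, which holds 16 symbols that begin with Cyp2c, and all 10 were found. The rule names symbols and uses no measured value, although the genes were picked with earlier results of these data known.

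Transcripts were measured by RNA sequencing in 12 libraries of primary hepatocytes from male mice, aged 10 weeks, whose REV-ERBα gene Nr1d1 and REV-ERBβ gene Nr1d2 were both floxed. All of the mice carried these floxed alleles, and all had received an AAV8 virus 2 weeks before the cells were isolated. In the KO group the virus was AAV8-TBG-Cre-GFP, in which the hepatocyte-specific TBG promoter drives Cre recombinase with GFP, and in the control group it was AAV8-TBG-GFP. No library holds Cre without floxed alleles, so effects of Cre and of REV-ERB loss cannot be told apart. The plated cells received DMSO, the solvent, or SR9009, a synthetic REV-ERB agonist, at 10 µM for 8 h, which gives 4 groups of 3 libraries. The series title speaks of effects of SR9009 that do not need REV-ERB, so 3 questions follow for each gene: what differed between the genotypes, what SR9009 changed in each genotype, and whether those SR9009 effects differed. Whether the 3 libraries of a group came from different mice is not stated in the labels, so a p-value here weighs a difference against a spread that may be technical.

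Enzymes of this family sit in the membrane of the endoplasmic reticulum, hold a heme group, and take their electrons from the reductase Por. They oxidise drugs and steroids, and several turn arachidonic and linoleic acid into epoxides, which epoxide hydrolases then open to diols. In the liver, genes of the family are known targets of the nuclear receptors CAR (Nr1i3) and PXR (Nr1i2), which respond to foreign compounds, and of the hepatocyte factor HNF4A. Cyp2c70 has a separate role: it hydroxylates bile acids to the muricholic acids of rodents.

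Levels are in FPKM, fragments scaled to gene model length and to the mapped total of a library, and all comparisons of level between genes below are on this length-corrected scale. Errors after ± are SDs over n = 3 libraries. Changes are differences in log2(FPKM + 1) with their SE or 95% confidence interval from limma, fitted to all tested genes and all 12 libraries, and adjusted p-values are Benjamini-Hochberg values over 11213 genes. A gene is said to have risen or fallen where that value was under 0.05. Folds and percent changes are ratios of group means in FPKM. The log2 values understate the change of genes near or below 1 FPKM.

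In mm9 coordinates of the deposited table, 9 of the 10 genes lie within 1180 kb of chromosome 19. In order along the chromosome they are Cyp2c55 (ENSMUSG00000025002, 39081509 to 39117183, plus strand), Cyp2c53-ps (ENSMUSG00000093610, 39303744 to 39349475, plus), Cyp2c29 (ENSMUSG00000003053, 39315441 to 39405203, plus), Cyp2c38 (ENSMUSG00000032808, 39464046 to 39537565, minus) and Cyp2c39 (ENSMUSG00000025003, 39585352 to 39643019, plus). Further along follow Cyp2c37 (ENSMUSG00000042248, 40066909 to 40086738, plus), Cyp2c54 (ENSMUSG00000067225, 40112431 to 40148301, minus), Cyp2c50 (ENSMUSG00000054827, 40164178 to 40188440, plus) and Cyp2c70 (ENSMUSG00000060613, 40227843 to 40261823, minus). Cyp2c44 (ENSMUSG00000025197, 44079512 to 44103737, minus), which newer annotation calls Cyp2c23, lies 3.82 Mb away from the rest.

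The promoters of the 4 clustered protein-coding genes that differed most between groups, and those of the near-identical pair Cyp2c37 and Cyp2c50, are shown because neighbouring genes behaved differently. The RefSeq promoter table (GRCm38.p6, 250 bases before to 50 after a start) matched 7 of the 10 genes with 8 promoters, 2 of them for Cyp2c39. Sequences run 5′ to 3′ on the gene's strand, and capitals mark the nuclear receptor half-site AGGTCA and the HNF4 core CAAAGTCCA. They cover chr19:39286835-39287134 (plus) for Cyp2c29, chr19:39006769-39007068 (plus) for Cyp2c55, chr19:40187237-40187536 (minus) for Cyp2c70, chr19:39463026-39463325 (minus) for Cyp2c38, chr19:39992174-39992473 (plus) for Cyp2c37 and chr19:40089429-40089728 (plus) for Cyp2c50.
Cyp2c29: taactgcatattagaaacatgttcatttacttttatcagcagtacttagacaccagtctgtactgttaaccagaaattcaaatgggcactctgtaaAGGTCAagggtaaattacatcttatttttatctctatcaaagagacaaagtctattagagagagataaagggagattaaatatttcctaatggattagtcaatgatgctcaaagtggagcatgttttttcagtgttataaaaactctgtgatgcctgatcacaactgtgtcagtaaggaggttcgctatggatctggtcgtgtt
Cyp2c55: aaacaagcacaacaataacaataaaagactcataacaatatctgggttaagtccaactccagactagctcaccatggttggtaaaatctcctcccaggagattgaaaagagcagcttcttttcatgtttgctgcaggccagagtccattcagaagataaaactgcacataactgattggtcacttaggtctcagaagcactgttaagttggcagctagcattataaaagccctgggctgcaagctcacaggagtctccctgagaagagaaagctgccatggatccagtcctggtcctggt
Cyp2c70: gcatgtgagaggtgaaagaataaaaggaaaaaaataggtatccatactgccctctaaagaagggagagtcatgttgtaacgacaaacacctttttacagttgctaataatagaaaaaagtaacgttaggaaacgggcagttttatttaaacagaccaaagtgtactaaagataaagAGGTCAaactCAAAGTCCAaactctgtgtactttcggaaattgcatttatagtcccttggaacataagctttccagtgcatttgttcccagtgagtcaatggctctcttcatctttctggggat
Cyp2c38: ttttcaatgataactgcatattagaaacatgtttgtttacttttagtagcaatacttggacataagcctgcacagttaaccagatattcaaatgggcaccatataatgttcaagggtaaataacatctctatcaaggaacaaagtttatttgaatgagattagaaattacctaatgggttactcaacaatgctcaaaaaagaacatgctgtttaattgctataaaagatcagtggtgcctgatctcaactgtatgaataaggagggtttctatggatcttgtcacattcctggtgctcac
Cyp2c37: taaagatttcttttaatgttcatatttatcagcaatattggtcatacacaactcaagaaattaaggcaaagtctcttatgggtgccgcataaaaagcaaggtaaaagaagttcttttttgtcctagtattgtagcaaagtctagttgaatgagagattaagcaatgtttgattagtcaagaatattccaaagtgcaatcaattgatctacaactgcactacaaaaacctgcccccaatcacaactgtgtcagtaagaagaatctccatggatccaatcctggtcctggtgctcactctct
Cyp2c50: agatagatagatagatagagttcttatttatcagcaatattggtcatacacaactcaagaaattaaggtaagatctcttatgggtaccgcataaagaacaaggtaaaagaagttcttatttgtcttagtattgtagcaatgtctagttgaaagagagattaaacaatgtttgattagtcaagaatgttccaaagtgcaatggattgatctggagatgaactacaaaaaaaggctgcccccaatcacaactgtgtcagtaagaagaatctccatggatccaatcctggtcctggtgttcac

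Counting the start base as 0, AGGTCA begins at -154 in Cyp2c29 and at -74 in Cyp2c70, and CAAAGTCCA begins at -64 in Cyp2c70 without overlapping the half-site. On both strands, AGGTCA was found in 3 of the 8 promoters (the other is one of the Cyp2c39 promoters) and in 16.3% of 32851 promoters in the table. CAAAGTCCA was found in 1 of 8 and in 0.475% of the table, and TATAAA in 5 of 8 and in 13.6%. Half-sites repeated with a spacing of 4, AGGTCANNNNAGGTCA, were in 0 of 8 and in 0.0152% of the table, and those with a spacing of 2, AGGTCANNAGGTCA, in 0 of 8 and in 0.00913%. Both repeats contain the single half-site. The D-box TTATGTAA was in 0 of 8 and in 0.938%. These matches describe letters in short windows and do not show binding.

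The promoters of Cyp2c37 and Cyp2c50 were identical at 90.1% of 292 aligned bases, and those of Cyp2c29 and Cyp2c38 at 81.3% of 278. Of the coding sequences in GENCODE M21, Cyp2c37 and Cyp2c50 shared 96.1% of their bases, Cyp2c50 and Cyp2c54 95.2%, Cyp2c37 and Cyp2c54 95.1%, and Cyp2c38 and Cyp2c39 94.2%. Cyp2c70 and Cyp2c44 stood further off, with 70.3% and 66.1% identity to their nearest family member among the 10. Of all stretches of 50 bases in a gene's transcript, 30.7% in Cyp2c50, 30.1% in Cyp2c37 and 25.7% in Cyp2c54 also occurred in another gene. The share was 12.05% in Cyp2c39, 7.45% in Cyp2c38, 2.08% in Cyp2c29 and 0.514% in Cyp2c55, and no such stretch was found for Cyp2c44 or Cyp2c70. The rule by which reads were divided between such copies was not given in the sources used here, so the levels of Cyp2c37, Cyp2c50, Cyp2c54, Cyp2c38 and Cyp2c39 are uncertain as levels of single genes.

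The cells carried the transcripts of hepatocytes. The summed level of 8 hepatocyte markers lay between 32512 and 39670 FPKM in every library, while the summed level of 10 Kupffer cell markers was 32.4 to 44.5 FPKM in the control DMSO libraries and 16.5 to 22.4 in the KO-labelled DMSO ones. Markers of sinusoidal endothelium summed to 5.43 to 6.17 FPKM in the control DMSO libraries and 8.60 to 12.8 in the KO-labelled DMSO ones, and lymphocyte markers to at most 0.391 in any library. Cholangiocyte markers summed to 42.1 to 44.7 FPKM in the control DMSO libraries and 29.1 to 38.8 in the KO-labelled DMSO ones. Of their 2 tested markers, 1 was higher and 1 lower in KO-labelled DMSO. In bulk samples, fewer cells of a type and less RNA per cell cannot be told apart. Gene-level values did not check the deletion: Nr1d1 was at 17.7 ± 0.459 FPKM in KO-labelled DMSO against 18.5 ± 0.412 in control DMSO (two-sided exact permutation test, p = 0.1, the smallest it can give here), and Nr1d2 was at 16.2 ± 0.0949 against 15.3 ± 1.87 (exact p = 0.4). Under SR9009, Nr1d1 was at 22.1 ± 0.490 FPKM in KO-labelled cells against 19.5 ± 0.565 in control, without overlap (exact p = 0.1). Nr1d2 was at 17.7 ± 1.58 against 15.3 ± 1.67 FPKM there (exact p = 0.2). The group is therefore called KO-labelled. Relative depth, read from the step size of low values, ranged from 55.5% to 100% of the deepest library, and the shallowest were library 1 of control SR9009 and library 1 of KO-labelled DMSO (63.4%).

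The family spanned more than 3 orders of magnitude. In control DMSO, Cyp2c29 stood highest at 1014 ± 88.8 FPKM, followed by Cyp2c70, Cyp2c50, Cyp2c54, Cyp2c37 and Cyp2c44 between 309 ± 12.1 and 88.2 ± 3.29. Cyp2c38, Cyp2c55 and Cyp2c53-ps were between 4.71 ± 0.412 and 2.45 ± 1.35 FPKM, and Cyp2c39 was at 0.612 ± 0.0391. Library values of neighbours in this order overlapped for Cyp2c55 and Cyp2c53-ps and for no other pair. In KO-labelled DMSO the order was Cyp2c29, Cyp2c70, Cyp2c50, Cyp2c44, Cyp2c54, Cyp2c37, Cyp2c55, Cyp2c53-ps, Cyp2c38, Cyp2c39, and values overlapped for Cyp2c54 and Cyp2c37. With SR9009, Cyp2c50 stood above Cyp2c70 in both genotypes, without overlap.

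**Figure D1:**
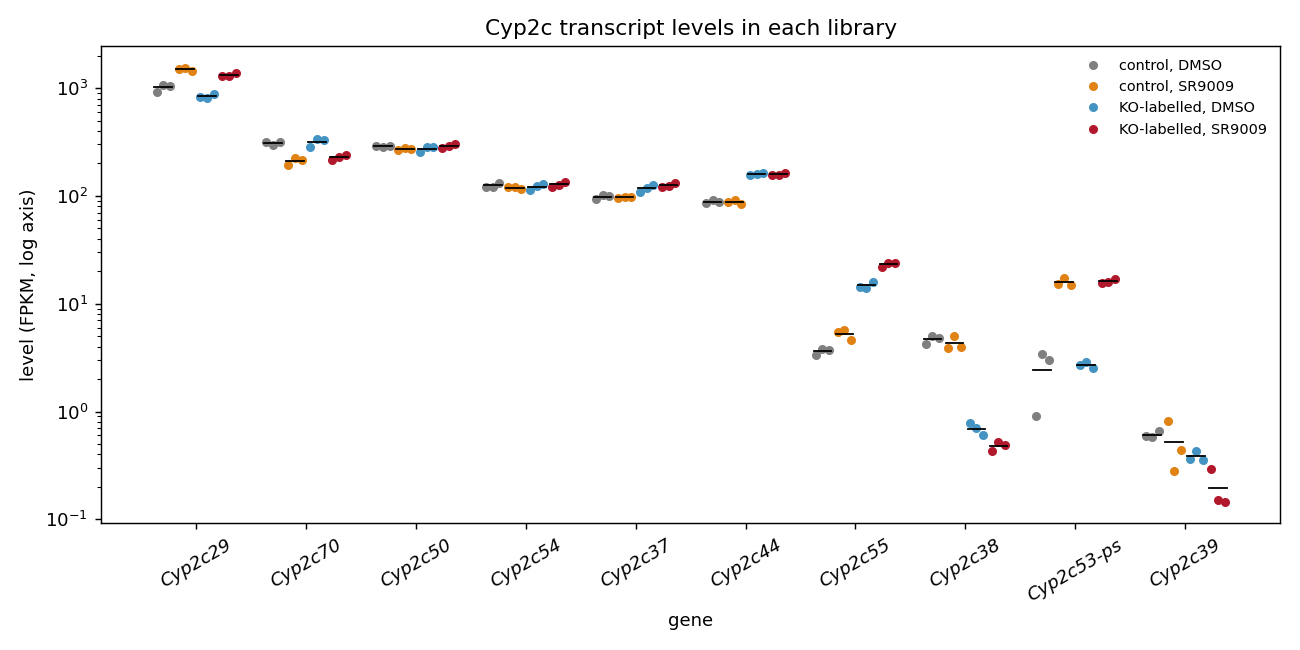
Level of each of the 10 genes (FPKM, log axis) in each library, 3 points per group and a bar at the group mean. Cyp2c29 lies highest in every group, Cyp2c55 and Cyp2c38 separate the genotypes in opposite directions, and Cyp2c53-ps separates SR9009 from DMSO.

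Between the genotypes in DMSO, Cyp2c55, Cyp2c44 and Cyp2c37 were higher in KO-labelled cells and Cyp2c38 and Cyp2c29 were lower. These are 5 of the 9 genes that could be tested, 3 higher and 2 lower, beside 20.0% of all tested genes called in this comparison (11.7% higher, 8.32% lower). Cyp2c38 entered this count only because its control libraries passed the filter on low levels. The median change of the 9 was 0.04 on the log2 scale, as was the median over all tested genes. Cyp2c70, Cyp2c50, Cyp2c54 and Cyp2c53-ps did not pass the test, and Cyp2c39 was too low for it.

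Cyp2c55 hydroxylates arachidonic acid and is known as a gene of the intestine that foreign compounds induce in liver. It was at 3.33, 3.80 and 3.76 FPKM in the control DMSO libraries and at 14.4, 14.1 and 16.0 FPKM in the KO-labelled ones. Every KO-labelled library lay above every control library. The KO-labelled mean, 14.8 ± 1.00 FPKM, was 4.08-fold the control mean of 3.63 ± 0.264 (log2 difference 1.77, SE 0.09, adjusted p = 4.42e-08, limma). Under SR9009 the gap was again present: control libraries were at 5.44, 5.74 and 4.58 FPKM and KO-labelled ones at 22.0, 23.8 and 23.9 (4.42-fold, log2 difference 1.96, adjusted p = 2.11e-08). Only 64 bp of its model overlap another model, on the opposite strand, which was at 0 in all libraries.

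Cyp2c44 is an arachidonic acid epoxygenase. It was at 85.7, 92.0 and 87.0 FPKM in the control DMSO libraries and at 158, 161 and 162 in the KO-labelled DMSO ones. The groups did not overlap, and the KO-labelled mean was 1.82-fold the control mean (log2 difference 0.85, SE 0.05, adjusted p = 1.28e-07, limma). With SR9009 the libraries were at 87.5, 91.2 and 84.3 FPKM in control and 157, 157 and 162 in KO-labelled cells, a 1.81-fold difference (adjusted p = 1.38e-07). As given above, no stretch of 50 bases of its transcript occurred in another gene.

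Cyp2c38, which also makes epoxides from arachidonic acid, showed the opposite pattern. The control DMSO libraries were at 4.24, 5.03 and 4.86 FPKM and the KO-labelled ones at 0.778, 0.698 and 0.607. All 3 KO-labelled values lay far below the lowest control value, and the control mean was 6.78-fold higher (log2 difference -1.75, SE 0.11, adjusted p = 2.94e-07, limma). Under SR9009 the levels were 3.88, 5.06 and 3.97 FPKM in control and 0.429, 0.523 and 0.493 in KO-labelled cells (log2 difference -1.83, adjusted p = 1.97e-07). Cyp2c38 passed the filter on low levels only through its control libraries, so it entered the test because it was high there.

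Its nearest copy, Cyp2c39, is known for turning over retinoic acid and was too low to be tested in the main fit, at roughly 6.13 to 28.9 read pairs a library. It was at 0.592, 0.586 and 0.657 FPKM in control DMSO, 0.825, 0.281 and 0.444 in control SR9009, 0.365, 0.428 and 0.357 in KO-labelled DMSO, and 0.293, 0.151 and 0.146 in KO-labelled SR9009. In DMSO the KO-labelled values all lay below the control values, with a mean lower by 37.4%, but 3 against 3 libraries cannot give less than the p = 0.1 found (two-sided exact permutation test). In KO-labelled cells the SR9009 values lay below the DMSO values (exact permutation p = 0.1), while in control cells (exact p = 0.7) and between the genotypes under SR9009 (exact p = 0.2) the groups overlapped. With the filter lowered to 0.1 FPKM, limma gave adjusted p-values of 0.0811 to 0.725 in these comparisons.

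Cyp2c29, the most abundant of the 10 and a gene that CAR activators are known to induce, was modestly lower in KO-labelled cells. The DMSO libraries were at 912, 1074 and 1056 FPKM in control and 818, 816 and 886 in KO-labelled cells. The groups did not overlap, although the lowest control library was close to the highest KO-labelled one, and the mean fell by 17.2% (log2 difference -0.27, SE 0.07, adjusted p = 0.0116, limma). This call did not hold without library 2 of control DMSO (adjusted p = 0.0558), without library 3 of control DMSO (adjusted p = 0.0518), without the 2 shallowest libraries (adjusted p = 0.0557) or after quantile normalization (log2 difference -0.14, adjusted p = 0.246). Under SR9009 the genotype difference of Cyp2c29 was -0.19 (95% interval -0.33 to -0.05, adjusted p = 0.0605), it passed the threshold after median ratio scaling (-0.24, adjusted p = 0.0354), and it changed sign after quantile normalization (0.08, adjusted p = 0.568).

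Cyp2c37, Cyp2c50 and Cyp2c54, the near-identical trio that oxidises arachidonic and linoleic acid, did not move together. Cyp2c37 was at 94.4, 101.9 and 99.1 FPKM in the control DMSO libraries and 109, 119 and 126 in the KO-labelled DMSO ones. The groups did not overlap and the KO-labelled mean was 1.20-fold the control mean (log2 difference 0.26, SE 0.06, adjusted p = 0.00957, limma). With SR9009 it was at 96.7, 97.2 and 98.6 FPKM in control and 121, 124 and 131 in KO-labelled cells (1.29-fold, adjusted p = 0.00105).

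Cyp2c50 was at 289, 282 and 293 FPKM in the control DMSO libraries and 254, 284 and 285 in the KO-labelled DMSO ones, and the groups overlapped (log2 difference -0.07, 95% interval -0.20 to 0.05, adjusted p = 0.422). Cyp2c54 was at 122, 122 and 132 FPKM in the control DMSO libraries and 114, 123 and 129 in the KO-labelled DMSO ones, again with overlap (-0.04, -0.17 to 0.09, adjusted p = 0.704). Both intervals end below the estimate of 0.26 for Cyp2c37. The difference between Cyp2c37 and its copies was not tested, and reads shared among them could move between the models.

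Cyp2c67 and Cyp2c68, which lie between Cyp2c39 and Cyp2c37 and were singled out after their values were seen, were also higher in KO-labelled cells. Cyp2c67 was at 76.0, 76.0 and 78.6 FPKM in the control DMSO libraries and 92.3, 106 and 108 in the KO-labelled DMSO ones (log2 difference 0.40, adjusted p = 0.000655). Cyp2c68 was at 39.6, 42.8 and 43.1 against 50.9, 56.0 and 60.1 FPKM (0.40, adjusted p = 0.00207). Their coding sequences are 97.2% identical to each other. The remaining 4 symbols of the family, Cyp2c40, Cyp2c65, Cyp2c66 and Cyp2c69, stayed at or below 3.33 FPKM in every library.

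Cyp2c70 did not differ detectably between the genotypes. It was at 314, 295 and 318 FPKM in the control DMSO libraries and 286, 337 and 330.1 in the KO-labelled DMSO ones, with full overlap (log2 difference 0.04, 95% interval -0.12 to 0.20, adjusted p = 0.775). Under SR9009 the difference was 0.11 (-0.05 to 0.27, adjusted p = 0.327).

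Several transcripts of other cells and zones moved with the genotype as well. Of the 8 tested Kupffer cell markers, 4 fell in KO-labelled DMSO and 0 rose, led by Marco (9.52 ± 1.34 against 1.66 ± 0.462 FPKM). Of 12 tested pericentral hepatocyte genes, 7 fell and 1 rose, among them Glul (238 ± 8.26 against 192 ± 6.81 FPKM), while of 14 periportal genes 9 rose and 1 fell, among them Cyp2f2 (202 ± 5.82 against 463 ± 18.8). Over all tested genes 11.7% were higher and 8.32% lower. The list medians were -0.46 for Kupffer cells, -0.27 for pericentral and 0.49 for periportal genes on the log2 scale, beside 0.04 over all tested genes. Their part in the Cyp2c differences was not tested.

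**Figure D2:**
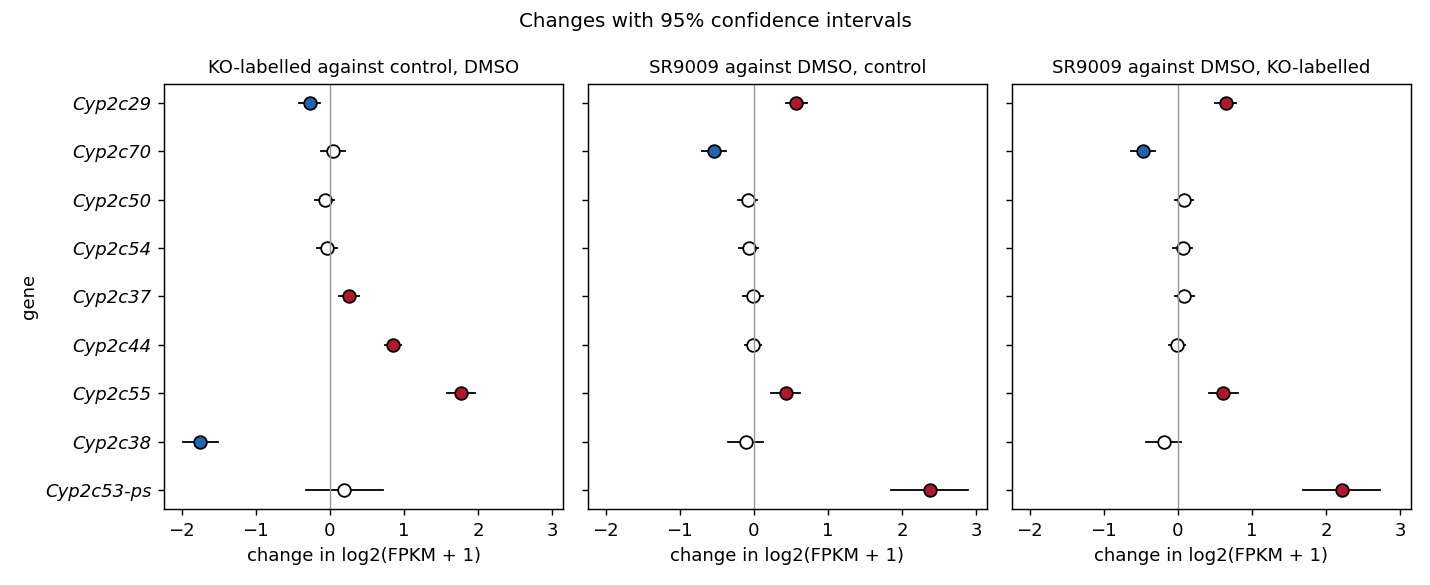
Difference in log2(FPKM + 1) with its 95% confidence interval for the 9 tested genes in 3 comparisons; filled points passed the adjusted threshold (red higher, blue lower), open points did not. The genotype comparison has Cyp2c55 at 1.77 and Cyp2c38 at -1.75, and both SR9009 comparisons have the same 4 filled points, Cyp2c29, Cyp2c55, Cyp2c53-ps and Cyp2c70.

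In control cells SR9009 raised Cyp2c29, Cyp2c55 and Cyp2c53-ps and lowered Cyp2c70, 4 of the 9 tested genes beside 8.24% of all tested genes (3.69% higher, 4.55% lower). In KO-labelled cells the same 4 genes were called, in the same directions, beside 9.87% of all genes (5.32% higher, 4.56% lower). The 2 SR9009 comparisons share no library, but both take their spread from the same fit of all 12 libraries. The median over the 9 was -0.01 in control and 0.08 in KO-labelled cells, against -0.02 and 0.00 over all tested genes.

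Cyp2c29 rose from 912, 1074 and 1056 FPKM to 1500.4, 1549 and 1457 in control cells. All SR9009 libraries lay above all DMSO libraries, and the mean was 1.48-fold higher (log2 change 0.57, SE 0.07, adjusted p = 0.000289, limma). In KO-labelled cells it rose from 818, 816 and 886 to 1297, 1289 and 1367 FPKM, or 1.57-fold (log2 change 0.65, SE 0.07, adjusted p = 7.72e-05). The difference between these changes was 0.08 (95% interval -0.12 to 0.28, adjusted p = 0.916).

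Cyp2c55 rose from 3.33, 3.80 and 3.76 FPKM to 5.44, 5.74 and 4.58 in control cells, 1.45-fold and without overlap (log2 change 0.43, SE 0.09, adjusted p = 0.0111, limma). That call was lost when only the control libraries were fitted (adjusted p = 0.0896), without library 1 of control DMSO (adjusted p = 0.0519) and without the 2 shallowest libraries (adjusted p = 0.0512). In KO-labelled cells it rose from 14.4, 14.1 and 16.0 to 22.0, 23.8 and 23.9 FPKM, 1.57-fold (log2 change 0.62, SE 0.09, adjusted p = 0.00104), a call that held under every alternative run. The changes differed by 0.19 between the genotypes (-0.09 to 0.46, adjusted p = 0.826).

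Cyp2c70, the bile acid hydroxylase, fell with SR9009. It went from 314, 295 and 318 FPKM to 196, 227 and 214 in control cells, and the mean fell by 31.3% (log2 change -0.54, SE 0.07, adjusted p = 0.000891, limma). In KO-labelled cells it went from 286, 337 and 330.1 to 218, 231 and 239 FPKM, and the mean fell by 27.9% (-0.47, SE 0.07, adjusted p = 0.00188). Groups did not overlap in either genotype, and the changes differed by 0.07 (-0.15 to 0.30, adjusted p = 0.936). With Cyp2c29 rising and Cyp2c70 falling, the ratio of Cyp2c29 to Cyp2c70 went from 3.29 to 7.09 in control and from 2.65 to 5.75 in KO-labelled cells.

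The pseudogene Cyp2c53-ps, which encodes no enzyme, had the largest SR9009 change of the 10 on the log2 scale. It was at 0.908, 3.44 and 2.99 FPKM in control DMSO and at 15.3, 17.3 and 14.9 in control SR9009, a 6.47-fold difference (log2 change 2.38, SE 0.24, adjusted p = 0.000123, limma). In KO-labelled cells it went from 2.72, 2.87 and 2.52 to 15.6, 15.8 and 17.1 FPKM, 5.98-fold (log2 change 2.21, adjusted p = 0.000153). Every SR9009 library lay well above every DMSO library, and library 1 of control DMSO stood low within its own group. The changes differed by -0.16 (-0.90 to 0.57, adjusted p = 0.964), and the genotypes did not differ detectably in DMSO (0.20, -0.33 to 0.72, adjusted p = 0.617).

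The models of Cyp2c53-ps and Cyp2c29 overlap on the same strand by 34035 bp in the deposited table. In GENCODE M21 the same models overlap by 5581 bp and share 1 identical exon of 142 bp (GRCm38 chromosome 19, 39273229 to 39273370), and Cyp2c29 is 61309 bp long there against 89763 bp in the deposited table. Of the 50-base stretches of the pseudogene's transcript, 9.11% also occur in Cyp2c29. Reads from one could therefore have been counted for the other. As a share of the Cyp2c29 level, Cyp2c53-ps was 0.234% in control DMSO (0.0995% to 0.320% over libraries) and 1.05% in control SR9009 (1.02% to 1.11%). In KO-labelled cells the share was 0.323% in DMSO (0.285% to 0.351%) and 1.23% in SR9009 (1.21% to 1.25%). Whether reads of Cyp2c29 were counted for the pseudogene was not tested. Adding the pseudogene's fragments to Cyp2c29 changed no Cyp2c29 call. With the pseudogene at no more than 1.25% of the Cyp2c29 level, that sum could hardly change one. It also says nothing of Cyp2c29 reads counted for the pseudogene.

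**Figure D3:**
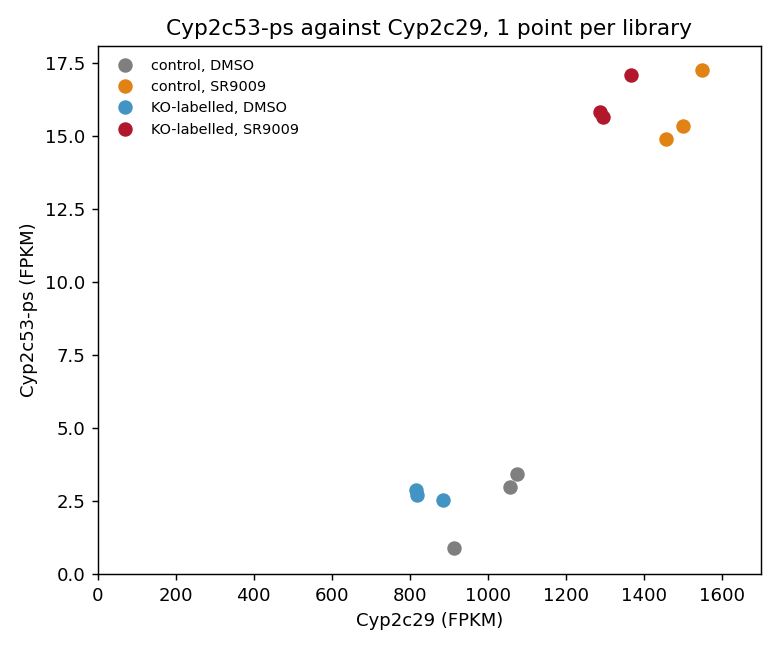
Cyp2c53-ps against Cyp2c29 in FPKM, 1 point per library and both axes from 0. The 6 DMSO libraries lie at or below 3.44 FPKM of Cyp2c53-ps and the 6 SR9009 libraries at or above 14.9, while along the Cyp2c29 axis SR9009 libraries start at 1289 and DMSO libraries end at 1074.

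The remaining genes did not pass the test for SR9009 in either genotype. Cyp2c44 changed by -0.01 in control (95% interval -0.11 to 0.10, adjusted p = 0.943) and by -0.02 in KO-labelled cells (-0.12 to 0.09, adjusted p = 0.901), the narrowest intervals of the 9. Cyp2c37 changed by -0.01 (-0.14 to 0.12, adjusted p = 0.933) and 0.09 (-0.04 to 0.22, adjusted p = 0.427). Cyp2c50 was at 267, 277 and 271 FPKM in control SR9009 and 276, 289 and 306 in KO-labelled SR9009, with changes of -0.08 (adjusted p = 0.442) and 0.08 (adjusted p = 0.430). Cyp2c54 was at 119.8, 122 and 116 FPKM and at 121, 128 and 134, with changes of -0.07 (adjusted p = 0.563) and 0.07 (adjusted p = 0.569). Cyp2c38 changed by -0.11 in control (-0.35 to 0.13, adjusted p = 0.624) and by -0.19 in KO-labelled cells (-0.43 to 0.05, adjusted p = 0.328).

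For the interaction of genotype and SR9009, limma called none of the 9 genes, and none had an unadjusted p under 0.05. Over all tested genes 3 were called, 0.0268%, and 787 had an unadjusted p under 0.05. Among the 9 the smallest unadjusted p belonged to Cyp2c50, whose SR9009 changes differed by 0.17 (95% interval -0.01 to 0.34, adjusted p = 0.725). The intervals limit a difference in Cyp2c29 to at most 0.28 and in Cyp2c70 to at most 0.30 on the log2 scale, and that of Cyp2c53-ps, from -0.90 to 0.57, limits it far less.

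Between the genotypes under SR9009, Cyp2c55, Cyp2c44 and Cyp2c37 were higher and Cyp2c38 lower in KO-labelled cells, 4 of 9 beside 20.4% of all tested genes (12.9% higher, 7.43% lower). Here too, Cyp2c38 passed the filter on low levels only through its control libraries. The medians were 0.10 over the 9 and 0.06 over all tested genes. Cyp2c50 (0.09, adjusted p = 0.279), Cyp2c54 (0.10, adjusted p = 0.293) and Cyp2c53-ps (0.03, adjusted p = 0.946) did not pass.

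**Figure D4:**
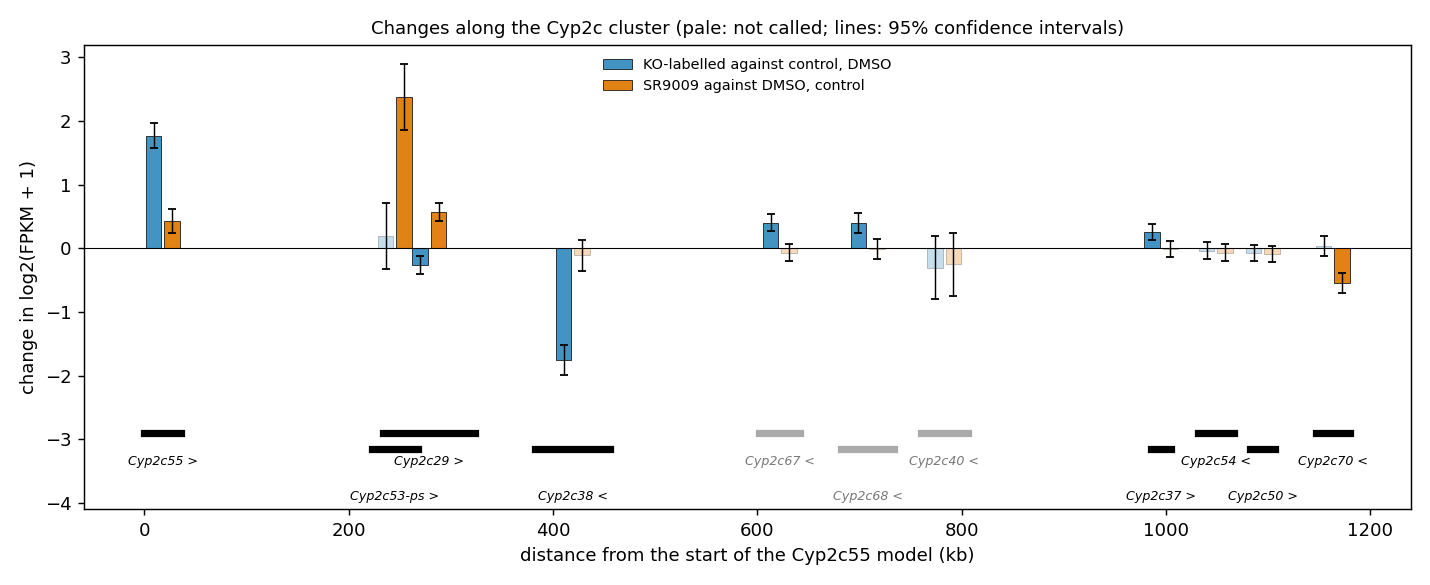
Differences in log2(FPKM + 1) along the chromosome 19 cluster, drawn at the centre of each tested gene model against its distance in kb from the start of Cyp2c55, blue for genotype in DMSO and orange for SR9009 in control cells, with gene models and strand arrows below (black: described genes, grey: other Cyp2c genes; Cyp2c44 lies beyond the right end, and untested genes are left out). Cyp2c55 (1.77) and Cyp2c38 (-1.75) stand on either side of Cyp2c29, and the pale bars of Cyp2c54, Cyp2c50 and both Cyp2c40 comparisons did not pass the threshold.

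Summed over the 10 genes, the level was 1935 ± 94.3 FPKM in control DMSO, 2317 ± 66.6 in control SR9009, 1851 ± 90.1 in KO-labelled DMSO and 2289 ± 81.0 in KO-labelled SR9009. Cyp2c29 alone made up 52.4%, 64.8%, 45.4% and 57.6% of these sums, so the sum mostly followed that gene.

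The partners of these enzymes were counted from lists of the pathway. Of 8 genes for electron supply and heme, all tested, 5 rose with SR9009 in control and 0 fell, beside 3.69% of all tested genes higher. In KO-labelled cells 5 rose and 0 fell, beside 5.32% higher, but not the same 5: Alas1 was called only in control and Cyb5b only in KO-labelled cells, and the interaction was called for neither (adjusted p = 0.682 and 0.673). The list also holds an enzyme that breaks heme down, which was among the 5 in each genotype, so these counts are not of supply alone. Por, the reductase that feeds all microsomal P450 enzymes, was at 435 ± 13.3 FPKM in control DMSO and 649 ± 24.6 in control SR9009 (log2 change 0.58, adjusted p = 2.85e-05), and at 285 ± 3.15 and 415 ± 14.2 in KO-labelled cells (0.54, adjusted p = 3.01e-05). Alas1, the rate-limiting enzyme of heme synthesis, rose in control from 165 ± 31.3 to 307 ± 41.3 FPKM (adjusted p = 0.0057) and was at 220.5 ± 30.7 and 282 ± 46.1 in KO-labelled cells (adjusted p = 0.224). Cyb5r3, a cytochrome b5 reductase, rose in control from 227 ± 9.43 to 331 ± 4.51 FPKM (adjusted p = 8.57e-05). It also rose in KO-labelled cells, from 236 ± 9.07 to 336 ± 16.1 (adjusted p = 9.45e-05). Between the genotypes in DMSO, 2 of the 8 fell and 1 rose. Por was lower in KO-labelled cells (adjusted p = 2.35e-06), as was the enzyme that breaks heme down. Among the tested members of the list, medians were 0.41 and 0.35 for SR9009 and -0.11 for genotype, beside -0.02, 0.00 and 0.04 over all tested genes.

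Of 10 epoxide hydrolases and other arachidonate epoxygenases, 5 could be tested, and 3 of these were higher in KO-labelled DMSO and 0 lower, beside 11.7% and 8.32% of all tested genes. The 3 higher genes include Cyp2j9, whose mean in control DMSO was below 1 FPKM. Its control libraries alone did not meet the filter on low levels. It passed with its KO-labelled libraries, so it entered this count because it was high there. The median of the 5 was 0.42, which is the value of Cyp2j9 itself, against 0.04 over all tested genes. Ephx1, the microsomal epoxide hydrolase, was at 264 ± 7.04 FPKM in control and 424 ± 11.9 in KO-labelled cells (log2 difference 0.68, adjusted p = 4.71e-07). The epoxygenase Cyp2j6 was at 13.1 ± 0.092 and 18.8 ± 1.02 (0.49, adjusted p = 0.000143). Ephx2, the soluble hydrolase, was at 143 ± 3.22 and 135 ± 4.80 FPKM and did not pass (adjusted p = 0.295). For SR9009 the smallest adjusted p among the 5 was 0.287 in control (Cyp2j6) and 0.126 in KO-labelled cells (Ephx1).

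Of 18 tested transcription factors known to act on Cyp2c genes, 5 fell and 2 rose between the genotypes in DMSO, 7 fell and 1 rose with SR9009 in control, and 7 fell and 0 rose with SR9009 in KO-labelled cells. Over all tested genes, 8.32%, 4.55% and 4.56% were lower in these comparisons and 11.7%, 3.69% and 5.32% higher. The list medians were -0.15, -0.19 and -0.22, against 0.04, -0.02 and 0.00 over all tested genes. Nr1i3, which encodes CAR, was at 9.83 ± 1.59 FPKM in the control DMSO libraries and 6.49 ± 0.312 in the KO-labelled DMSO ones (log2 difference -0.52, adjusted p = 0.00435). Nr1i2, which encodes PXR, rose with SR9009 in control from 21.1 ± 1.52 to 30.2 ± 2.14 FPKM (0.50, adjusted p = 0.00602). In KO-labelled cells Nr1i2 was at 18.0 ± 2.02 and 20.5 ± 1.61 FPKM and did not pass (0.18, adjusted p = 0.272). Rxra, the partner receptor of both, fell from 43.5 ± 2.24 to 30.4 ± 3.21 in control (-0.51, adjusted p = 0.00229) and from 39.5 ± 2.21 to 27.1 ± 1.43 in KO-labelled cells (-0.53, adjusted p = 0.00148). Hnf4a fell with SR9009 in KO-labelled cells from 226 ± 8.42 to 150 ± 20.2 FPKM (-0.60, adjusted p = 0.00173).

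Around Cyp2c70, 13 genes of bile acid synthesis were tested. Between the genotypes in DMSO 7 were higher in KO-labelled cells and 2 lower, and with SR9009 0 rose and 2 fell in each genotype. Over all tested genes 11.7% were higher and 8.32% lower for genotype. For SR9009, 3.69% were higher and 4.55% lower in control, and 5.32% higher and 4.56% lower in KO-labelled cells. Whether 2 of 13 differs from these shares was not tested. The list medians were 0.20, -0.05 and -0.02. Cyp7b1, the oxysterol hydroxylase, was higher in KO-labelled cells than at its 57.5 ± 0.904 FPKM in control DMSO (log2 difference 0.79, adjusted p = 3.72e-07), while Cyp27a1, which starts the acidic pathway, was at 247 ± 6.81 and 205 ± 6.86 (-0.27, adjusted p = 0.00106). Baat, which conjugates bile acids, fell with SR9009 from 55.5 ± 3.64 to 44.6 ± 0.964 FPKM in control (-0.31, adjusted p = 0.014). In KO-labelled cells Baat fell from 64.2 ± 4.27 to 51.2 ± 2.69 FPKM (-0.32, adjusted p = 0.01).

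Around Cyp2c39, 3 of 8 genes of retinoic acid clearance could be tested. Cyp26a1, the main retinoic acid hydroxylase, fell between the genotypes in DMSO from 3.25 ± 0.487 to 0.486 ± 0.274 FPKM (log2 difference -1.53, adjusted p = 3.02e-05) and rose with SR9009 in control to 6.92 ± 0.650 (0.90, adjusted p = 0.00496). It was below 1 FPKM on average in both KO-labelled groups and passed the filter through its control libraries, so it entered the genotype test because it was high there.

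Among other CYP2 genes, 13 of 24 in the table were tested, and 6 were higher and 4 lower in KO-labelled DMSO, beside 20.0% of all tested genes called. Of the 6 higher genes, Cyp2a4 had a mean below 1 FPKM in both control groups. It passed the filter on low levels through its KO-labelled libraries, so it entered this count because it was high there. The list median was 0.13. With SR9009, 2 rose and 0 fell in each genotype, beside 8.24% and 9.87% of all tested genes called, and the medians were -0.01 and 0.02. Cyp2b10, the classical CAR target, rose from 317 ± 28.6 to 1084 ± 71.7 FPKM in control (log2 change 1.77, adjusted p = 4.11e-08), and Cyp2a5 from 341 ± 18.9 to 399.5 ± 5.02 (0.23, adjusted p = 0.0107). In KO-labelled cells Cyp2b10 rose from 98.4 ± 5.54 to 531 ± 8.95 FPKM (2.42, adjusted p = 2.58e-09). Cyp2a5 rose there from 2272 ± 25.0 to 2981 ± 20.8 (0.39, adjusted p = 0.00029). The interaction was called for neither (adjusted p = 0.0991 and 0.670). Between the genotypes in DMSO, Cyp2b10 was lower in KO-labelled cells (-1.68, adjusted p = 1.13e-08) and Cyp2a5 higher (2.73, adjusted p = 2.16e-12).

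Likeness of pattern was measured for the 3 most abundant genes as the root mean square difference of log2(FPKM + 1) over the 12 libraries, each gene centred on its own mean. Closest to Cyp2c29 were Rbbp8 (0.107), Exosc8 (0.115) and Prss8 (0.118), where Cyp2c29 itself varied by 0.333 and the median over all genes was 0.389. Closest to Cyp2c70 were Arfgap3 (0.0606), Tob1 (0.0706) and Aacs (0.0778), where Cyp2c70 varied by 0.267 and the median was 0.318. Closest to Cyp2c50, which itself varied by only 0.0670, were Psmd1 (0.0446), Aldh1a7 (0.0472) and Arih2 (0.0477), with a median of 0.190.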

How the data were processed

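Polyadenylated RNA of plated hepatocytes was depleted of ribosomal RNA and sequenced from NEBNext Ultra II libraries, per the labels' protocols. The authors aligned reads with HISAT2 and quantified genes with StringTie on the build mm9, per the submitters' processing notes. How shared reads were counted, the strand setting, the annotation and tool versions were not given in the sources used here. Deposited values were taken as FPKM: the header names no unit, library totals differ (538521 to 604449), and low values fall on steps that scale with gene length. For a gene of 1 kb a read pair was worth 0.0373 to 0.0672 FPKM. No pair of libraries shared more than 0.0535% of values.

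The 11213 of 37991 genes that reached 1 FPKM in 3 or more libraries were fitted on log2(FPKM + 1), 1 mean per group, by limma 3.58.1 (R 4.3.3; robust, with a variance trend), with Benjamini-Hochberg adjustment at 0.05. On simulated data for KO against control in DMSO (11213 genes, 200 changed), 67% of log2 changes of 0.5 and 94% of those of 1 were recovered, with 10 false among 171 calls. Those changes were planted only in genes with means well above the filter, with normally distributed noise, so recovery near the filter was not measured. Single levels of genes below the filter, and those of Nr1d1 and Nr1d2, which pass it, were compared with exact permutation tests. Coding sequences came from GENCODE M21 and promoters from RefSeq, both on GRCm38; no coordinates were converted. Alternatives were the pseudocount, the filter, 2 scalings, the libraries fitted, a replicate block, each library left out, and the sum of overlapping models; leaving out the 2 shallowest libraries was chosen after seeing the data. The genes described, the lists and the tests were chosen with earlier results of these data known. Text names the 10 members, up to 4 genes per list by smallest p in a comparison, the 3 genes most like each of the 3 most abundant members, Nr1d1 and Nr1d2. Replicate numbers were not used to pair the samples, and the labels do not say whether equal numbers share a mouse or a preparation. Some list members are not reported here.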

Additional observations from a re-analysis of the deposited data

How the results depend on the processing

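Of the 17 Cyp2c changes called in the 4 pairwise comparisons, none changed sign over 239 alternative values, and 232 of these values were called too; the 7 that were not belong to Cyp2c29 between the genotypes in DMSO and to Cyp2c55 for SR9009 in control, with their values given above. The number of Cyp2c genes called ranged from 4 to 5 for genotype in DMSO, 3 to 4 for SR9009 in control, 4 to 4 in KO-labelled cells, 0 to 0 for the interaction and 3 to 5 for genotype under SR9009. Counts over all genes moved more. For SR9009 in control, 924 fell to 376 when only the groups compared were fitted, to 609 without the 2 shallowest libraries and to 530 to 919 with one library left out. For SR9009 in KO-labelled cells, 1107 became 603 to 859 with one library left out. For genotype under SR9009, 2283 became 1518 with only the groups compared. The 3 interaction genes became 1 after quantile normalization, 1 without the 2 shallowest libraries and 0 to 5 with one library left out. The cause of these shifts was not tested. Where one library is left out, 1 group holds 2 libraries.

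Changes that were not called as reported and changed sign under an alternative were those of Cyp2c54 between the genotypes in DMSO (0.0095 without the 2 shallowest libraries), Cyp2c44 for SR9009 in control (0.0015 after median ratio scaling), Cyp2c70 in the interaction (-0.0562 without the 2 shallowest libraries) and, for genotype under SR9009, Cyp2c53-ps (-0.0134 after median ratio scaling) and Cyp2c29 (0.0756 after quantile normalization). With one library left out, the range crossed 0 in DMSO for Cyp2c54 (-0.0792 to 0.0095), Cyp2c70 (-0.0072 to 0.11) and Cyp2c53-ps (-0.19 to 0.42, negative without library 1 of control DMSO). It did so for SR9009 in control for Cyp2c37 (-0.0433 to 0.0117) and Cyp2c44 (-0.0381 to 0.0205), in the interaction for Cyp2c38 (-0.14 to 0.0179), Cyp2c44 (-0.0356 to 0.0230) and Cyp2c53-ps (-0.39 to 0.22), and for genotype under SR9009 for Cyp2c53-ps (-0.0094 to 0.0913).

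Libraries with the same replicate number did not deviate together (r of -0.112 to 0.122, over 0.1 in 1 of 18 pairs), so the numbers were not used as a pairing. With 3 libraries a group, these correlations cannot show that equal numbers share no preparation. With a replicate block, 0 interaction genes were called, and the Cyp2c counts were 5, 4, 4, 0 and 4, as without it. Depth limits Cyp2c39, which rests on about 6.13 to 28.9 read pairs a library.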
